A study of Mus musculus with 12 samples.

Results

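Collagen genes were examined in brain tissue next to an experimental hematoma. They were taken as every gene whose symbol has the form of a collagen chain, from Col1a1 to Col28a1, and 44 of the 21956 genes in the table met this rule. Of these, 8 encode chains of basement membrane collagens, 11 encode fibrillar collagens and 25 encode other collagens (beaded-filament, network-forming, fibril-associated and transmembrane chains). The libraries fell into 4 groups of 3. Both genotypes carried floxed alleles of Fabp4, which encodes a fatty acid-binding protein: the Fabp4fl_fl controls (fl/fl) and the Fabp4CKO mice (CKO), which also had 1 copy of a tamoxifen-inducible Cre recombinase driven by the microglial gene Tmem119. CKO mice received tamoxifen on 7 days and were operated 14 days after the last dose. The methods do not say whether fl/fl mice received it, so the genotype cannot be told apart from the drug. In each genotype, intracerebral hemorrhage (ICH) was induced by stereotactic injection of collagenase into the right striatum, and sham mice had the same surgery without the enzyme. The injected agent is itself a protease of collagen, and hemorrhage and enzyme cannot be told apart here. Tissue was taken at 48 h in the ICH groups. Sex and age of these genotypes are not given in the sources used here. The labels number the libraries within a group but do not say that each came from a different mouse, and if they did not, the p-values measure technical spread.

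Collagens are built from chains wound into a helix, which is hydroxylated in the endoplasmic reticulum, secreted and then assembled outside the cell. Type IV collagen forms the mesh of basement membranes, which in the brain surrounds vessels, and types XV and XVIII are heparan or chondroitin sulfate proteoglycans found in the same layer. Fibrillar collagens such as types I, III and V form the fibers of scars and connective tissue and are sparse in healthy brain parenchyma, where they lie mainly in the meninges and around larger vessels.

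Total counts per library ranged from 15650813 to 22406216. Fabp4 had 46, 63 and 24 counts in the ICH-fl/fl libraries, 5, 3 and 10 in ICH-CKO, 2, 1 and 2 in Sham-fl/fl and 0 in every Sham-CKO library. Markers of the labelled tissue were present throughout, with lowest summed levels over the libraries of 1299.9 CPM (counts divided by the normalised library size and scaled to 1e+06) for 7 neuronal genes, 1012 CPM for 6 astrocyte genes and 333 CPM for 7 microglial genes. Library 2 of ICH-CKO stood apart from libraries 1 and 3 of its group in most of the results that follow. Library 1 of ICH-CKO held 1 Y-linked read, against 1302 to 2251 in each of the other libraries. The Sham-fl/fl libraries carried choroid plexus RNA: its 8 marker genes summed to 871, 1648 and 3237 CPM there and to between 22.0 and 54.2 CPM in the other 9 libraries. All values come from bulk tissue, in which more cells of a type and more RNA per cell cannot be told apart.

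Collagen RNA was a small share of the sham libraries and a larger one after ICH. Collagen genes took 0.0299% to 0.0393% of the counts in the 6 sham libraries. After ICH they took 0.174%, 0.137% and 0.0759% in fl/fl and 0.245%, 0.0542% and 0.397% in CKO. All 6 ICH libraries lay above all 6 sham libraries, and ICH-CKO held both the highest and the lowest of the 6.

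The classes did not contribute equally. The 8 basement membrane genes summed to 89.7, 88.3 and 90.5 CPM in Sham-fl/fl and to 1259, 832 and 487 CPM in ICH-fl/fl. In CKO they summed to 80.8, 84.4 and 73.0 CPM in sham and to 865, 177 and 1272 CPM after ICH. Basement membrane RNA was thus higher after ICH in each genotype without overlap, and the ranges of both ICH groups overlapped. The 11 fibrillar genes summed to 62.0, 48.6 and 40.6 CPM in Sham-fl/fl, and to 428, 285 and 129 CPM in ICH-fl/fl. In Sham-CKO they summed to 39.3, 38.3 and 36.3 CPM, and in ICH-CKO to 1238, 117 and 2543 CPM. ICH-CKO libraries 1 and 3 therefore held more fibrillar collagen RNA than any fl/fl library, while library 2 held less than each ICH-fl/fl library. The 25 other genes summed to between 172 and 250 CPM in Sham-fl/fl, 177 and 183 CPM in Sham-CKO, 143 and 246 CPM in ICH-fl/fl and 240 and 566 CPM in ICH-CKO.

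**Figure D1:**
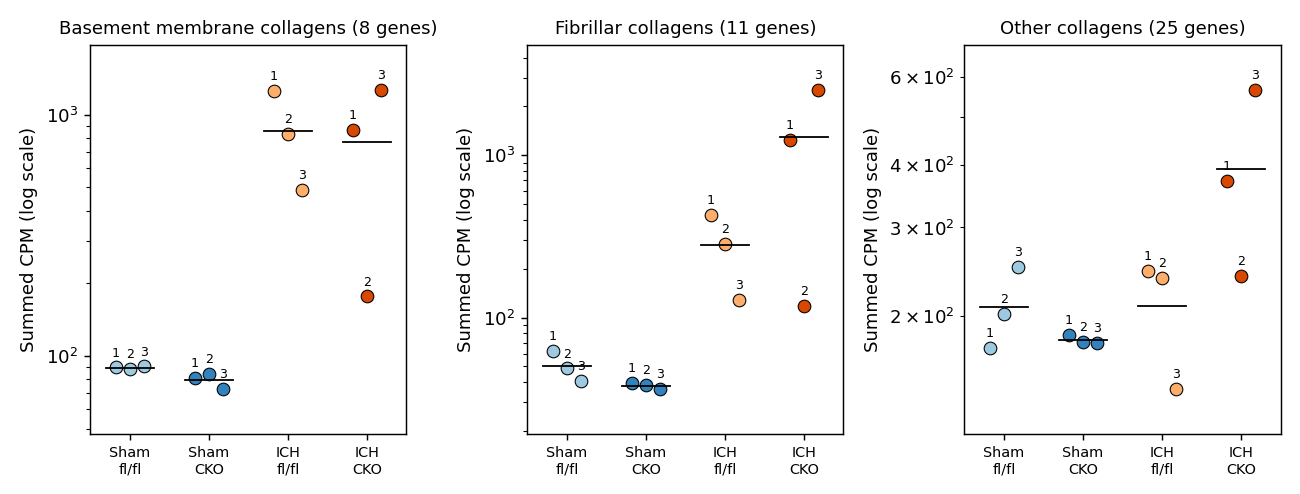
Summed CPM (log scale) of the basement membrane, fibrillar and other collagen genes in each library; points are libraries with their number, lines are group means. Fibrillar collagens reached 1238 and 2543 CPM in ICH-CKO libraries 1 and 3 and 117 CPM in library 2.

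Per kilobase of exon, the order of the genes changed with ICH. The level of each gene was divided by its exon length in the GENCODE M21 annotation, which may not be the one used for counting. In Sham-fl/fl, Col25a1, a transmembrane collagen of neurons, ranked first with 8.20 ± 0.981 CPM per kb (SD, n = 3), followed by Col9a3 with 5.39 ± 1.55 and Col4a1 with 5.16 ± 0.215 CPM per kb. The ranges of Col9a3 and Col4a1 overlapped, so their order was within the spread. In ICH-fl/fl, Col4a1 ranked first with 68.6 ± 30.1 CPM per kb and Col4a2 second with 40.4 ± 19.8 CPM per kb, whose ranges overlapped. Col16a1 followed with 7.89 ± 2.87 CPM per kb, below every Col4a1 and Col4a2 value. In ICH-CKO, Col1a1 had a mean of 51.8 ± 50.0 CPM per kb and Col4a1 of 51.7 ± 38.3 CPM per kb, an order not separated by the spread. Of all collagen RNA per kilobase, the basement membrane genes made up 67.4%, 63.2% and 65.3% in the ICH-fl/fl libraries and 37.7%, 34.4% and 32.2% in the ICH-CKO libraries. The fibrillar genes made up 18.1%, 17.05% and 13.9% in ICH-fl/fl and 42.5%, 18.3% and 50.7% in ICH-CKO. The basement membrane share was lower in every ICH-CKO library, including library 2, where the other collagens took 47.3%.

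In fl/fl mice, ICH was followed by higher RNA of most basement membrane and fibrillar chains and by lower RNA of a few others. Of the 44 genes, 40 passed the filter on low counts. Of these, 21 were higher and 3 lower in ICH-fl/fl than in Sham-fl/fl at an adjusted p under 0.05 (edgeR, quasi-likelihood fit, p adjusted over all genes by Benjamini-Hochberg), where 26.2% of all tested genes were higher and 19.3% lower. At an unadjusted p under 0.05, 23 were higher (30.3% of all tested genes) and 4 lower (24.9%), and groups did not overlap for 20 with higher (34.4%) and 5 with lower values (27.4%). The median log2 fold change was 1.21 over the tested collagens and 0.02 over all tested genes. Among basement membrane genes 6 of 8 were higher and 0 lower, among fibrillar genes 9 of 10 were higher and 0 lower, and among other genes 6 of 22 were higher and 3 lower. In this comparison 12 of 12 endothelial and 9 of 11 mural markers were also higher, summing to 347 to 388 and 226 to 310 CPM in Sham-fl/fl and to 758 to 1639 and 644 to 1199 CPM in ICH-fl/fl. Of 12 fibroblast markers, 10 were tested and 4 were higher. The part of these cells in the collagen changes was not tested.

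Col4a1 had the largest log2 fold change among basement membrane genes, and those of Col4a2 and Col4a6 were not separated by their errors. Col4a1, which with Col4a2 makes the common type IV trimer, was at 38.6, 36.9 and 40.1 CPM in Sham-fl/fl and at 745, 494 and 298 CPM in ICH-fl/fl. The groups were far apart and the ICH libraries varied more. The log2 fold change was 3.68 (SE 0.33, adjusted p = 0.000408). Col4a2 was at 30.7, 31.9 and 32.9 CPM in sham and at 406, 250 and 145 CPM after ICH, again without overlap, with a log2 fold change of 3.02 (SE 0.35, adjusted p = 0.000835). Col4a6 (2.95, SE 0.34) and Col4a5 (1.94, SE 0.25), which pair in a type IV network of smooth muscle and some epithelia, also rose. Col18a1, the precursor of endostatin, was at 8.19, 6.63 and 5.16 CPM in sham and 67.0, 39.8 and 16.9 CPM after ICH, and its log2 fold change was 2.57 (SE 0.46). Col15a1 rose less, with a log2 fold change of 1.21 (SE 0.25, adjusted p = 0.00825). Col4a3 and Col4a4, chains of the kidney glomerulus, did not pass the test and stayed at or below 2.19 CPM in every library of both groups.

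Fibrillar chains rose from low sham levels. Col3a1, the type III chain, was at 5.59, 5.70 and 3.20 CPM in Sham-fl/fl and at 117, 59.7 and 20.1 CPM in ICH-fl/fl. The lowest ICH library was well above the highest sham library. Its log2 fold change was 3.71 (SE 0.61, adjusted p = 0.00334). The type I chains Col1a1 and Col1a2 had log2 fold changes of 2.74 (SE 0.54) and 1.98 (SE 0.40). All chains of type V, which regulates fibril diameter, rose: Col5a3 by 3.82 (SE 0.40), Col5a2 by 2.91 (SE 0.50) and Col5a1 by 2.80 (SE 0.43) on the log2 scale. Col11a1 (3.12, SE 0.39) and Col2a1 (3.98, SE 0.56), best known from cartilage, and Col27a1 (1.22, SE 0.25) rose as well. Col2a1 had only 28, 14 and 9 counts in the sham libraries and 333, 207 and 125 counts after ICH. Col11a2 did not pass the test, at 9.24 to 15.9 CPM in sham and 9.85 to 17.4 CPM after ICH.

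The other collagens moved in both directions. Col16a1, which associates with fibrils, was at 5.01, 3.67 and 4.70 CPM in Sham-fl/fl and at 72.3, 53.9 and 33.6 CPM in ICH-fl/fl, with a log2 fold change of 3.53 (SE 0.29, adjusted p = 0.000352). Col20a1 (3.05, SE 0.25) and Col12a1 (2.32, SE 0.43), both fibril-associated, and Col7a1 (4.51, SE 0.65), the anchoring fibril collagen of skin, also rose. Col7a1 was near the floor in sham, with 6, 3 and 4 counts, against 135, 75 and 40 counts after ICH. It passed the filter on low counts through the ICH libraries, where it was high, so its test is no support. Of the type VI chains, which form beaded filaments, Col6a2 rose by 1.16 (SE 0.35, adjusted p = 0.0312) on the log2 scale. Col6a4 rose by 1.90 (SE 0.59, adjusted p = 0.0347), from 13, 6 and 7 counts to 33, 10 and 41. The groups overlapped for both genes. Neither passed without Sham-fl/fl library 1, Sham-fl/fl library 2 or ICH-fl/fl library 1. Col6a1 had a log2 fold change of 1.29 (SE 0.47) and an adjusted p of 0.0574, and did not pass.

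Col25a1, Col6a5 and Col8a2 were lower in ICH-fl/fl. Col25a1 was at 91.4, 113 and 114 CPM in sham and at 12.2, 14.3 and 24.1 CPM after ICH, groups that were far apart, and was 6.41-fold lower (log2 fold change -2.68, SE 0.29, adjusted p = 0.000684). Col8a2, a short-chain collagen of Descemet's membrane of the cornea, was at 10.02, 12.98 and 23.4 CPM in sham and 2.11, 0.312 and 0.584 CPM after ICH, with a log2 fold change of -4.03 (SE 0.65). All 8 choroid plexus markers were lower in the same comparison, from a summed 871 to 3237 CPM to 22.0 to 34.2 CPM, and their part in the Col8a2 difference was not tested. Col6a5, a type VI chain, had 30, 39 and 69 counts in Sham-fl/fl and 2, 1 and 2 counts in ICH-fl/fl. The ratio of the summed counts per normalised library size was 23.2 (95% exact counting interval 9.71 to 72.6, which covers counting error only). Col6a5 passed the filter on low counts through the sham libraries, where it was high, so its adjusted p (0.00136, edgeR) is no support. In the same comparison all 6 markers of cortical neurons were lower (a list added after the data were seen). They summed to 395, 539 and 96.0 CPM in Sham-fl/fl libraries 1, 2 and 3 and to 19.0 to 55.0 CPM in ICH-fl/fl. Over the Sham-fl/fl libraries the order differed: library 3 had the most Col6a5 counts and the lowest cortical sum. The part of cortical tissue in the Col6a5 difference was not tested.

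**Figure D2:**
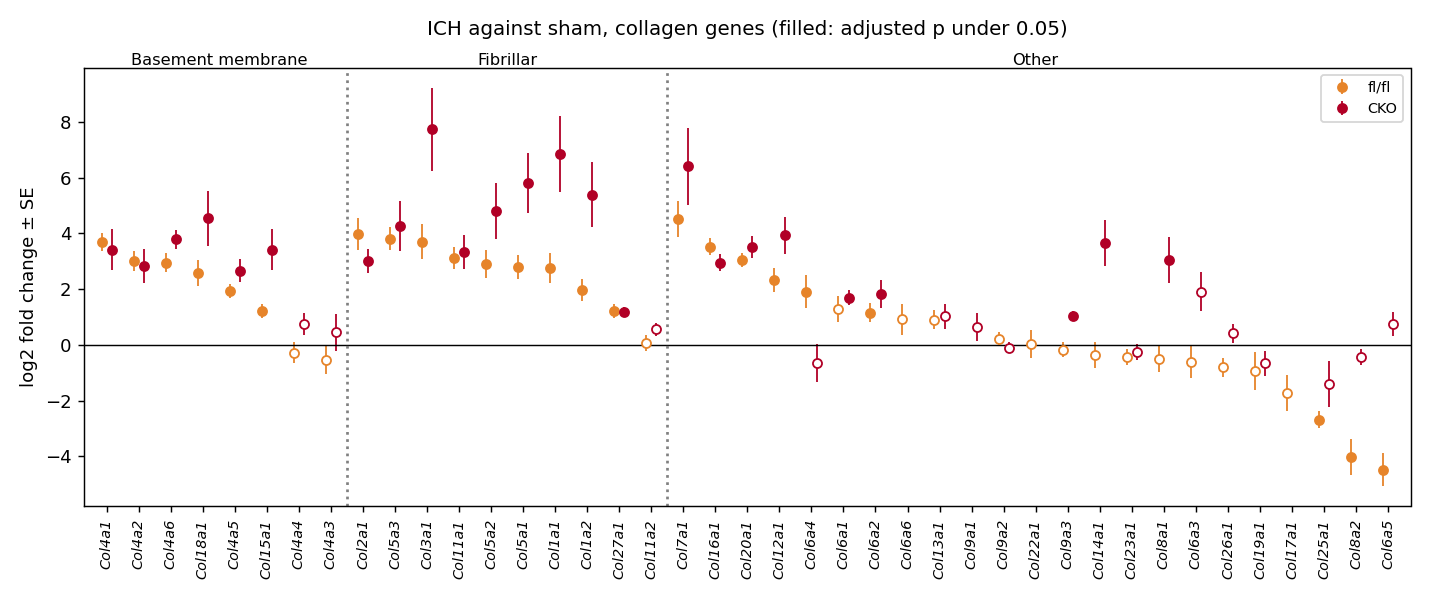
Log2 fold change with its standard error for ICH against sham in fl/fl and CKO libraries, for each collagen gene tested in either; filled points passed an adjusted p of 0.05. Col3a1 changed by 3.71 in fl/fl and by 7.74 in CKO, with standard errors of 0.61 and 1.49.

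The same question was asked in CKO mice, where basement membrane and fibrillar chains again made up most of the genes that were higher. Of 38 collagens tested, 24 were higher in ICH-CKO than in Sham-CKO (24.5% of all tested genes were) and 0 were lower (11.1% of all tested genes were) after Benjamini-Hochberg adjustment of the edgeR fit. At an unadjusted p under 0.05, 25 were higher (30.3% of all tested genes) and 0 lower (22.2%), and DESeq2 called 27 higher and 0 lower, against 25.1% and 20.3% of all genes it tested. The DESeq2 calls included Col10a1, which was tested through ICH-CKO libraries 1 and 3, where it was high, so that call is no support. Groups did not overlap for 26 with higher (33.2%) and 1 with lower values (28.9%). The higher genes were 6 of 8 basement membrane, 9 of 10 fibrillar and 9 of 20 other collagens. The median log2 fold change was 2.74 over the tested collagens and 0.01 over all tested genes. The count rested on every Sham-CKO library: without library 1, 2 or 3 of Sham-CKO it was 5, 4 and 4, and the share of all tested genes that were higher was 5.32%, 5.12% and 4.69%. It was 12 without ICH-CKO library 1, the library with 1 Y-linked read (9.63% of all tested genes), and 26 without ICH-CKO library 2 (34.8%). Col2a1, Col4a6, Col16a1 and Col20a1 passed in each of these 5 fits.

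Among the basement membrane genes, Col4a6 had the smallest p of all collagens, with 17, 26 and 27 counts in Sham-CKO and 218, 193 and 365 counts in ICH-CKO (log2 fold change 3.79, SE 0.34, adjusted p = 0.00478). This was a gene in which ICH-CKO library 2 was close to the others. Col4a1 was at 36.5, 39.4 and 32.5 CPM in sham and at 441, 76.7 and 640.4 CPM after ICH, and Col4a2 at 30.1, 30.7 and 27.8 CPM and 238, 57.3 and 328 CPM. Library 2 was the lowest ICH-CKO library for both and still above sham. Their log2 fold changes were 3.42 (SE 0.74) and 2.82 (SE 0.61). Col18a1 was at 103, 11.5 and 191 CPM in ICH-CKO against 3.82 to 5.42 CPM in Sham-CKO, a log2 fold change of 4.55 (SE 0.98). Col15a1 was at 41.1, 7.14 and 58.7 CPM against 2.73 to 3.79 CPM, a log2 fold change of 3.42 (SE 0.75).

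The fibrillar genes had the widest spread. Col3a1 was at 1.48, 2.60 and 1.65 CPM in Sham-CKO and at 375, 16.1 and 839 CPM in ICH-CKO (log2 fold change 7.74, SE 1.49, adjusted p = 0.0143). Col1a1 was at 2.54, 3.63 and 2.71 CPM in sham and at 333, 15.9 and 672 CPM after ICH (6.84, SE 1.36, adjusted p = 0.0156). Every ICH-CKO library was above every Sham-CKO library for both genes, and libraries 1 and 3 were far above library 2. Col1a2 was at 338, 24.0 and 681 CPM after ICH against 6.89 to 9.06 CPM in sham (log2 fold change 5.39, SE 1.16). Col5a1 had a log2 fold change of 5.81 (SE 1.09) and Col5a2 of 4.81 (SE 1.00). Among the other collagens, Col12a1 (3.93, SE 0.67), Col14a1 (3.65, SE 0.84), a fibril-associated chain, Col8a1 (3.06, SE 0.83), a short-chain collagen of vessel walls, Col9a3 (1.03, SE 0.17) and Col6a1 (1.69, SE 0.27) were higher. Col25a1 was at 100, 93.8 and 102 CPM in Sham-CKO and at 21.3, 84.3 and 6.01 CPM in ICH-CKO, with library 2 next to sham, and did not pass (log2 fold change -1.40, SE 0.84, adjusted p = 0.209). Without library 2 it did (-2.87, adjusted p = 0.00103). The 7 neuronal markers summed to 4515 to 4711 CPM in Sham-CKO and to 1299.9 to 3996 CPM in ICH-CKO, where library 2 was the highest, and their part was not tested.

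Markers of blood-derived, microglial and connective tissue cells varied with the fibrillar genes over the ICH-CKO libraries. The 8 monocyte and macrophage markers, all 8 of which were higher than in sham, summed to 5064, 1029 and 8694 CPM in ICH-CKO libraries 1, 2 and 3, to 2061, 1618 and 786 CPM in ICH-fl/fl and to between 11.03 and 55.5 CPM in sham. Fibroblast markers, of which 5 of 9 tested were higher in ICH-CKO than in Sham-CKO, summed to 223, 81.7 and 325 CPM in ICH-CKO and 219, 196 and 98.3 CPM in ICH-fl/fl, against 30.9 to 38.2 CPM in Sham-CKO. Endothelial markers, 5 of 12 of which were higher, were at 532, 418 and 463 CPM in ICH-CKO and 322 to 336 CPM in Sham-CKO. Mural markers, 8 of 11 of which were higher, were at 527, 357 and 603 CPM and at 223 to 236 CPM. Microglial markers, 6 of 7 of which were higher, summed to 2651, 1354 and 3950 CPM in ICH-CKO and 1231 to 1381 CPM in ICH-fl/fl. Neutrophil markers were at 227, 71.0 and 203 CPM in ICH-CKO. Astrocyte markers (4460, 4674 and 3598 CPM) and oligodendrocyte lineage markers (8597, 9422 and 5775 CPM) were instead highest in ICH-CKO library 2. The part of these cells in the spread was not tested.

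Between the ICH groups, no collagen gene passed the test. Of 37 tested, 0 were higher and 0 lower in ICH-CKO than in ICH-fl/fl in the edgeR quasi-likelihood fit at an adjusted p under 0.05, as for all tested genes (0%). At an unadjusted p under 0.05, 10 were higher (6.36% of all tested genes) and 2 lower (5.82%), and DESeq2 called 5 higher, Col6a5, Col6a3, Col8a2, Col14a1 and Col10a1, and 0 lower, where it called 1.41% of all genes higher and 1.78% lower. Of the DESeq2 calls, Col6a5 and Col10a1 had at most 2 counts in any ICH-fl/fl library. They were tested through ICH-CKO libraries in which they were high, so these calls are no support. Groups did not overlap for 5 with higher (8.3%) and 2 with lower values (11.5%). The median log2 fold change was 0.61 over the tested collagens and 0.06 over all tested genes. By class, 1 basement membrane, 3 fibrillar and 6 other collagens were higher at the unadjusted level.

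The type IV chains of vessels did not separate the ICH groups. Col4a1 was at 745, 494 and 298 CPM in ICH-fl/fl and 441, 76.7 and 640.4 CPM in ICH-CKO, ranges that overlapped. Leaving out ICH-fl/fl library 1 or ICH-CKO library 2 turned the direction of Col4a1 and Col4a2, so that no direction is given. Col15a1 was at 11.3, 10.04 and 6.59 CPM in ICH-fl/fl and at 41.1, 7.14 and 58.7 CPM in ICH-CKO (log2 fold change 2.00, SE 0.70, adjusted p = 0.356). Libraries 1 and 3 of ICH-CKO were above all ICH-fl/fl libraries and library 2 lay within their range. Endothelial and mural markers summed lower in ICH-CKO (418 to 532 and 357 to 603 CPM) than in ICH-fl/fl (758 to 1639 and 644 to 1199 CPM). Of these markers, 11 of 12 and 3 of 11 were lower at an unadjusted p under 0.05 (5.82% of all tested genes) and 0 at the adjusted level (0%). Their part in the basement membrane values was not tested.

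Fibrillar chains followed the same split. Col1a1 was at 77.1, 41.4 and 15.5 CPM in ICH-fl/fl and 333, 15.9 and 672 CPM in ICH-CKO (log2 fold change 3.01, SE 1.22, adjusted p = 0.399). Col1a2 (2.68, SE 1.08), Col5a1 (2.25, SE 0.91) and Col3a1 (2.72, SE 1.27) gave fold changes of the same sign. The groups overlapped for each of these 4 genes, with library 2 of ICH-CKO within or below the ICH-fl/fl range. Without it the log2 fold change of Col1a1 was 3.57 (adjusted p = 0.0752) and that of Col3a1 3.29 (adjusted p = 0.0910), and neither passed. Col2a1 had the opposite sign, at 23.4, 12.9 and 6.64 CPM in ICH-fl/fl and 6.01, 3.30 and 4.81 CPM in ICH-CKO, with no overlap (log2 fold change -1.53, SE 0.47, adjusted p = 0.341).

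Col10a1, the network-forming collagen of hypertrophic cartilage, had most of its counts in ICH-CKO libraries 1 and 3 and was chosen for description after its values were seen. It had 936, 8 and 1838 counts in ICH-CKO, 0, 1 and 2 in ICH-fl/fl, 0, 1 and 0 in Sham-fl/fl and 2, 4 and 0 in Sham-CKO. The filter on low counts removed it from the main test. The ratio of its summed counts in ICH-CKO to those in ICH-fl/fl was 866 (95% exact counting interval 296 to 4203), an interval that covers counting error only and not the spread between libraries. Without the filter, its adjusted p was 0.329 by edgeR. DESeq2, which sets aside genes with low mean counts before the adjustment, gave 0.000135. Col10a1 passed that step through ICH-CKO libraries 1 and 3, where it was high, so this p is no support. The fit without ICH-CKO library 2 kept the filter and called 0.0136% of all tested genes higher. Col10a1 entered that fit through libraries 1 and 3, where it was high, so its adjusted p there (0.00554, edgeR) is no support. Mmp13, a collagenase produced with Col10a1 in cartilage and also by other cells, was also highest in those libraries, at 95.2, 1.65 and 112 CPM in ICH-CKO against 0.691 to 3.38 CPM in ICH-fl/fl. It was 1 of 3 collagenase genes in a list added after the data were seen. Mmp8 (520, 90 and 1195 counts in ICH-CKO) and Mmp14 (2260, 759 and 4267) also had their highest counts in ICH-CKO libraries 1 and 3. Bone and cartilage markers were taken as 12 genes, a list added after the data were seen. They summed to 18.5 to 24.3 CPM in ICH-CKO and 20.4 to 27.8 CPM in ICH-fl/fl. The bone genes Bglap and Mepe had 0 counts in every ICH library and at most 3 in any sham library. Of the 5 genes of this list that were tested, 1 was higher and 1 lower in ICH-CKO than in Sham-CKO. Runx2 had 32, 54 and 15 counts in Sham-CKO, 74, 76 and 123 in ICH-CKO and 83, 61 and 37 in ICH-fl/fl. Sp7 went the other way, with 86, 104 and 95 counts in Sham-CKO, 46, 30 and 35 in ICH-CKO and 71, 76 and 84 in ICH-fl/fl. Both were named after their values were seen. The part of such cells in the Col10a1 counts was not tested.

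**Figure D3:**
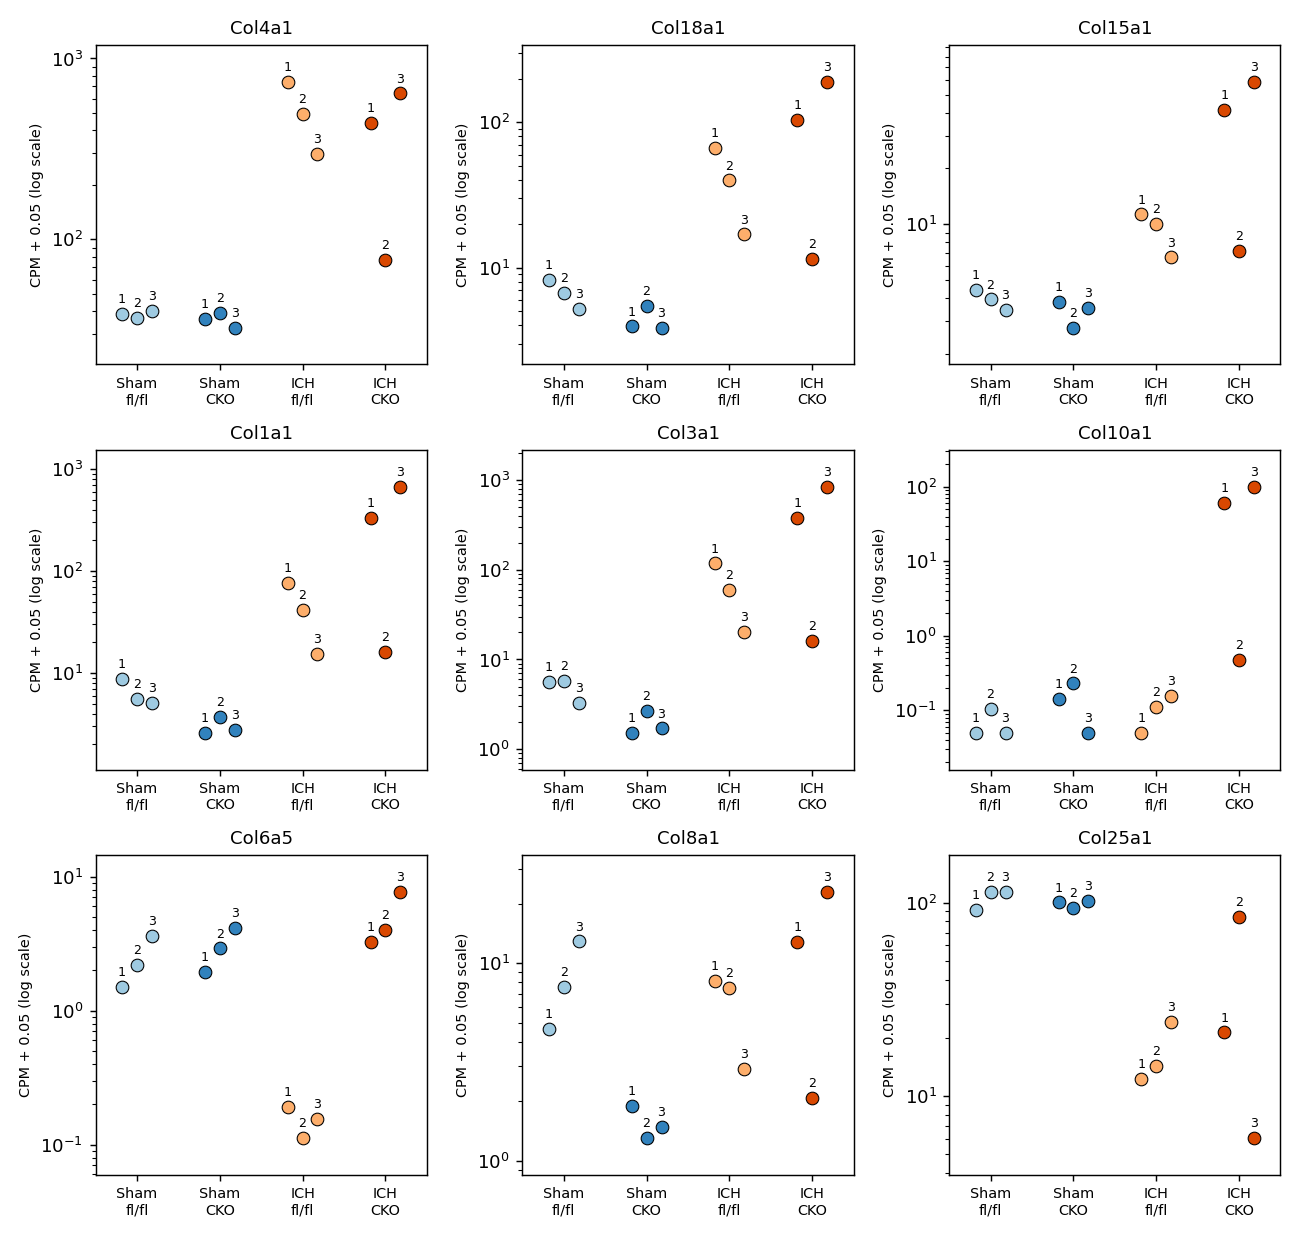
CPM plus 0.05 (log scale) of 9 collagen genes in each library, numbered within its group. Col1a1, Col3a1, Col10a1, Col15a1 and Col18a1 were highest in ICH-CKO libraries 1 and 3, Col6a5 was lowest in the 3 ICH-fl/fl libraries, and Col25a1 in ICH-CKO library 2 (84.3 CPM) lay next to the sham libraries.

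Sequences upstream of Col3a1, Col5a1 and Col10a1 are shown because these genes were all highest in ICH-CKO libraries 1 and 3, and because none of the 3 windows holds an annotated exon. Each runs over the 250 bases before the RefSeq start on the plus strand of GRCm38.p6, from 5′ to 3′, at chr1:45311288-45311537, chr2:27886175-27886424 and chr10:34389731-34389980. Capitals mark the letters TATAAA or CCAAT on either strand.
Col3a1: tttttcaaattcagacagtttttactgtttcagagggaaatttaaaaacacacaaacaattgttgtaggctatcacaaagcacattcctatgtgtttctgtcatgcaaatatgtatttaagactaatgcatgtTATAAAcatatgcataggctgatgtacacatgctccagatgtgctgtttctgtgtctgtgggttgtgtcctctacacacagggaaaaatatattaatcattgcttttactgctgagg
Col5a1: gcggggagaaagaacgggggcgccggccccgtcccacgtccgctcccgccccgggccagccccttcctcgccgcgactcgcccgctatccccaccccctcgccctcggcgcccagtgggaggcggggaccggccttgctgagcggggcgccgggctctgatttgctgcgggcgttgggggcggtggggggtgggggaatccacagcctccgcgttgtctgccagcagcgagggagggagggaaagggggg
Col10a1: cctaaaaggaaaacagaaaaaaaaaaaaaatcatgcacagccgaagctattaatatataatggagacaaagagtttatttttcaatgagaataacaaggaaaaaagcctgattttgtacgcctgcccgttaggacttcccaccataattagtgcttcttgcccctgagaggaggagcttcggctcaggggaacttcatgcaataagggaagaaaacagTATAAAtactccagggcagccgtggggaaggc
The TATAAA match began 32 bases before the start in Col10a1 and 117 bases before it in Col3a1, and the Col5a1 window held neither run. The promoter table held 35 of the 44 collagens. TATAAA was present in 5 of these 35 (14.3%) and in 14.3% of all 27025 genes, and CCAAT in 13 (37.1%) and 37.5%. The run GGGCGG was present in 21 collagens (60.0%) and in 35.4% of all genes. TGACTCA was present in 1 collagen (2.86%) and 5.16% of all genes, and TGTGGT in 3 (8.57%) and 15.9%. Matches were counted on both strands and describe these windows only.

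Several other collagens separated the ICH groups without passing the adjusted threshold. Col6a5 had 2, 1 and 2 counts in ICH-fl/fl and 50, 74 and 140 counts in ICH-CKO, with every ICH-CKO library higher. The ratio of the summed counts was 49.3 (95% exact counting interval 20.9 to 153, which covers counting error only). Its adjusted p by edgeR was 0.119, the smallest in this comparison. Here Col6a5 passed the filter on low counts through ICH-CKO, where it was high, so this p is no support. The 3 ICH-CKO libraries lay near Sham-CKO, which had 41, 64 and 89 counts. Of the 6 cortical markers, 5 were higher in ICH-CKO at an unadjusted p under 0.05 (6.36% of all tested genes) and 0 at the adjusted level (0%). They summed to 96.2, 478 and 115 CPM in ICH-CKO libraries 1, 2 and 3, 19.0 to 55.0 CPM in ICH-fl/fl and 82.0 to 145 CPM in Sham-CKO. Within ICH-CKO these markers were highest in library 2 and Col6a5 in library 3. Their part in the Col6a5 difference was not tested. Col6a3 was at 4.08, 3.24 and 3.51 CPM in ICH-fl/fl and 29.6, 7.14 and 54.1 CPM in ICH-CKO, all higher (log2 fold change 3.12, SE 0.70, adjusted p = 0.295). Col8a2 was at 2.11, 0.312 and 0.584 CPM in ICH-fl/fl and at 7.89, 4.00 and 4.59 CPM in ICH-CKO, also without overlap (2.54, SE 0.69, adjusted p = 0.318). Col25a1 gave no stable direction: it was at 12.2, 14.3 and 24.1 CPM in ICH-fl/fl and 21.3, 84.3 and 6.01 CPM in ICH-CKO, and the sign turned without ICH-CKO library 2.

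**Figure D4:**
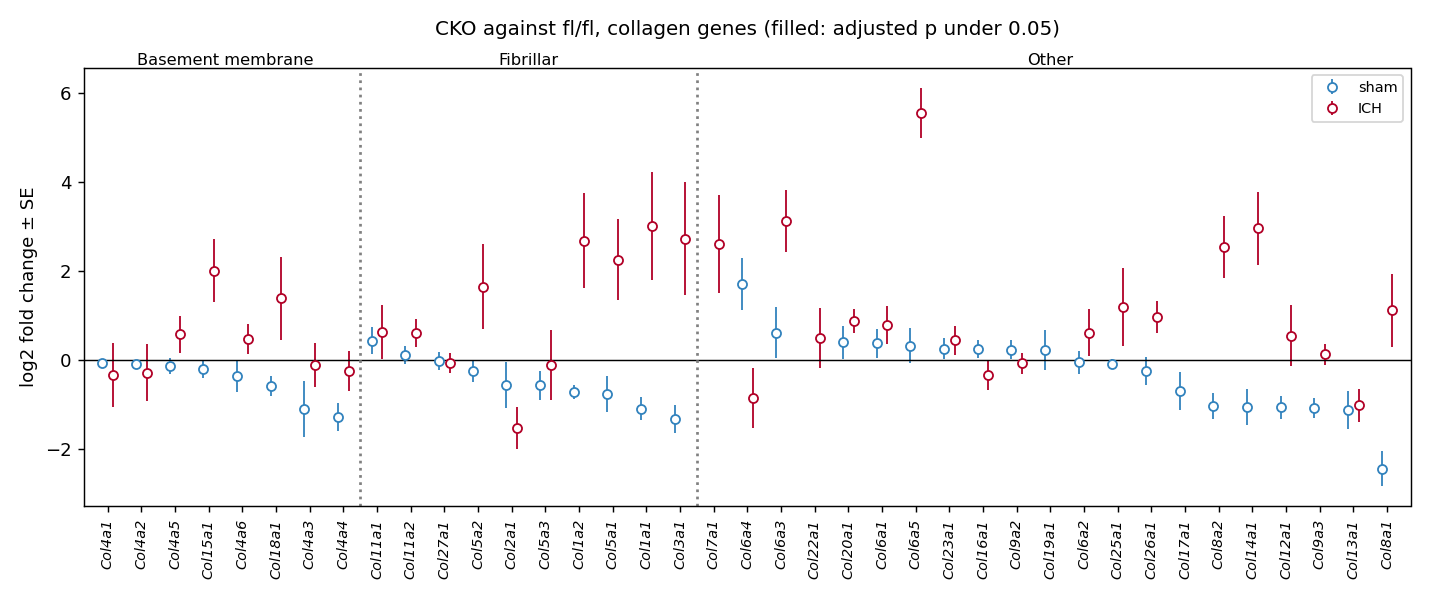
Log2 fold change with its standard error for CKO against fl/fl in sham and in ICH libraries, for each collagen gene tested in either; every point is open because none passed an adjusted p of 0.05. Col6a5 had the largest change after ICH, at 5.55, and Col8a1 the largest in sham, at -2.45.

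Without hemorrhage, several collagens had lower values in CKO, and none passed the test. Of 37 tested, 0 were higher (0% of all tested genes) and 0 lower (0.111%) in Sham-CKO than in Sham-fl/fl in the edgeR quasi-likelihood fit at an adjusted p under 0.05. At an unadjusted p under 0.05, 1 was higher (4.15% of all tested genes) and 11 were lower (6.07%), and DESeq2 called 5 lower, Col8a1, Col9a3, Col1a2, Col3a1 and Col1a1, and 0 higher, where it called 0.749% of all genes lower and 0.0539% higher. Groups did not overlap for 11 collagens with lower values (8.86% of all tested genes) and for 0 with higher values (5.98%). The median log2 fold change was -0.26 over the tested collagens and 0.00 over all tested genes.

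Col8a1 had the smallest p. It was at 4.58, 7.50 and 12.9 CPM in Sham-fl/fl and 1.85, 1.25 and 1.42 CPM in Sham-CKO, with no overlap (log2 fold change -2.45, SE 0.40, adjusted p = 0.132). Col9a3, a fibril-associated chain of cartilage, was at 14.5, 21.5 and 26.3 CPM in Sham-fl/fl and 11.05, 9.67 and 8.60 CPM in Sham-CKO (-1.08, SE 0.22, adjusted p = 0.263). Both were highest in Sham-fl/fl library 3 and lowest in library 1 of that group. The choroid plexus marker Ttr, a thyroid hormone carrier, had the same order, at 783, 1483 and 2929 CPM in Sham-fl/fl, and was at 14.2 to 19.0 CPM in Sham-CKO. All 8 choroid plexus markers were lower in Sham-CKO at an unadjusted p under 0.05 and 4 at the adjusted level, and 7 of 10 tested fibroblast markers were lower at the unadjusted level and 0 at the adjusted level. The shares of all tested genes were 6.07% and 0.111%. Fibroblast markers summed to 50.3 to 78.5 CPM in Sham-fl/fl and 30.9 to 38.2 CPM in Sham-CKO, where Dpt had 0 counts. Their part in the collagen values was not tested.

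The fibrillar genes had another order over the Sham-fl/fl libraries. Col1a1 was at 8.67, 5.48 and 5.01 CPM in Sham-fl/fl and 2.54, 3.63 and 2.71 CPM in Sham-CKO (log2 fold change -1.10, SE 0.26, adjusted p = 0.347). Col3a1 was at 5.59, 5.70 and 3.20 CPM and at 1.48, 2.60 and 1.65 CPM (-1.32, SE 0.32, adjusted p = 0.347), and Col1a2 had a log2 fold change of -0.73 (SE 0.16, adjusted p = 0.278). Every Sham-CKO library was below every Sham-fl/fl library for these 3 genes. The main vascular chains had log2 fold changes of -0.08 (SE 0.10) for Col4a1 and -0.10 (SE 0.08) for Col4a2, and neither passed. Sham-fl/fl library 3 decided the count of calls: without it 9 collagens were lower (9.12% of all tested genes) and 2, Col6a1 and Col6a3, higher (10.5%) at an adjusted p under 0.05 (edgeR). Col6a3 was at 2.41, 2.85 and 10.7 CPM in Sham-fl/fl and 4.83 to 9.72 CPM in Sham-CKO, so library 3 lay above Sham-CKO and the other two below. Col6a1 was at 8.05, 6.90 and 17.7 CPM in Sham-fl/fl and 13.9 to 14.01 CPM in Sham-CKO. The same library stood apart in neuronal markers: 7 markers of striatal neurons summed to 1447, 1644 and 4769 CPM in Sham-fl/fl and 3089 to 5593 CPM in Sham-CKO, and the 6 cortical markers to 395, 539 and 96.0 CPM and to 82.0 to 145 CPM. Their part in the collagen values was not tested. Without Sham-fl/fl library 1, Col8a1 was the only collagen that passed (0.131% of all tested genes were lower).

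Whether the change with ICH differed between genotypes was tested as an interaction over all 12 libraries. The comparisons above share their groups with it, so its values are not independent of theirs. Of 42 collagens tested, 0 had a higher (0.0133% of all tested genes) and 0 a lower (0.00663%) change in CKO in the edgeR quasi-likelihood fit at an adjusted p under 0.05. At an unadjusted p under 0.05, 13 had a higher (5.57%) and 1 a lower change (4.37%), and DESeq2 called 5 higher and 0 lower, against 0.986% and 0.427% of all genes it tested. The smallest adjusted p was 0.0687, for Col6a5. Those that followed were Col8a2 (difference of log2 fold changes 3.52, SE 0.76, adjusted p = 0.187), Col14a1 (3.97, SE 0.99, adjusted p = 0.264) and Col8a1 (3.498, SE 1.01, adjusted p = 0.312). Col1a1 gave 4.04 (SE 1.36, adjusted p = 0.367) and Col3a1 3.98 (SE 1.46, adjusted p = 0.397). In the same test 7 of the 8 choroid plexus markers were higher at an unadjusted p under 0.05 and 2 at the adjusted level, as were 5 and 0 of the 6 cortical markers, and their part was not tested. The count depended on 1 library: without ICH-CKO library 2, 9 collagens passed, Col1a1, Col1a2, Col3a1, Col5a1, Col15a1, Col14a1, Col8a1, Col8a2 and Col6a5, all with a higher change, as had 1.7% of all tested genes. Without ICH-fl/fl library 1, Col8a2 was the only collagen that passed (0.124% of all tested genes had a higher change).

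Ratios of the counts of 2 chains were compared between sham and ICH libraries for 6 pairs, 5 within a collagen type and Col3a1 with Col1a1 across types III and I. For 4 pairs they did not overlap in either genotype. The counts of Col4a1 per count of Col4a2 were 1.26, 1.15 and 1.22 in Sham-fl/fl and 1.84, 1.97 and 2.05 in ICH-fl/fl. In CKO they were 1.21, 1.28 and 1.17 in sham and 1.85, 1.34 and 1.95 after ICH. All ICH ratios were above all sham ratios, and ICH-CKO library 2 was the closest to sham. In the RefSeq annotation both genes are transcribed away from each other, with starts that overlap by 22 bases, so that reads there could not be assigned by position alone. The Col1a1 to Col1a2 ratio was 0.454 ± 0.0838 (SD, n = 3) in Sham-fl/fl and 0.735 ± 0.132 in ICH-fl/fl, and 0.369 ± 0.136 in Sham-CKO and 0.878 ± 0.186 in ICH-CKO. The Col4a5 to Col4a6 ratio was lower after ICH, at 3.15 ± 1.299 in Sham-fl/fl and 1.45 ± 0.264 in ICH-fl/fl, and at 3.58 ± 1.19 in Sham-CKO and 1.501 ± 0.374 in ICH-CKO. The Col3a1 to Col1a1 ratio was 0.775 ± 0.230 in Sham-fl/fl and 1.42 ± 0.113 in ICH-fl/fl, and 0.636 ± 0.0707 in Sham-CKO and 1.13 ± 0.119 in ICH-CKO. The Col5a1 to Col5a2 ratio overlapped in fl/fl, at 0.468 ± 0.180 in sham and 0.4998 ± 0.195 after ICH, and did not overlap in CKO, at 0.332 ± 0.115 in sham and 0.656 ± 0.0181 after ICH. The Col6a1 to Col6a2 ratio overlapped in both genotypes, at 1.36 ± 0.204 and 1.49 ± 0.282 in fl/fl and at 1.90 ± 0.152 and 2.05 ± 0.845 in CKO. The two-sided exact permutation p was 0.10 in the 9 comparisons without overlap (0.133 after adjustment over all 12), the smallest that 3 libraries against 3 allow, so that this design could not pass the threshold. It was 0.80 for Col5a1 to Col5a2 in fl/fl, and 0.70 in fl/fl and 1 in CKO for Col6a1 to Col6a2.

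**Figure D5:**
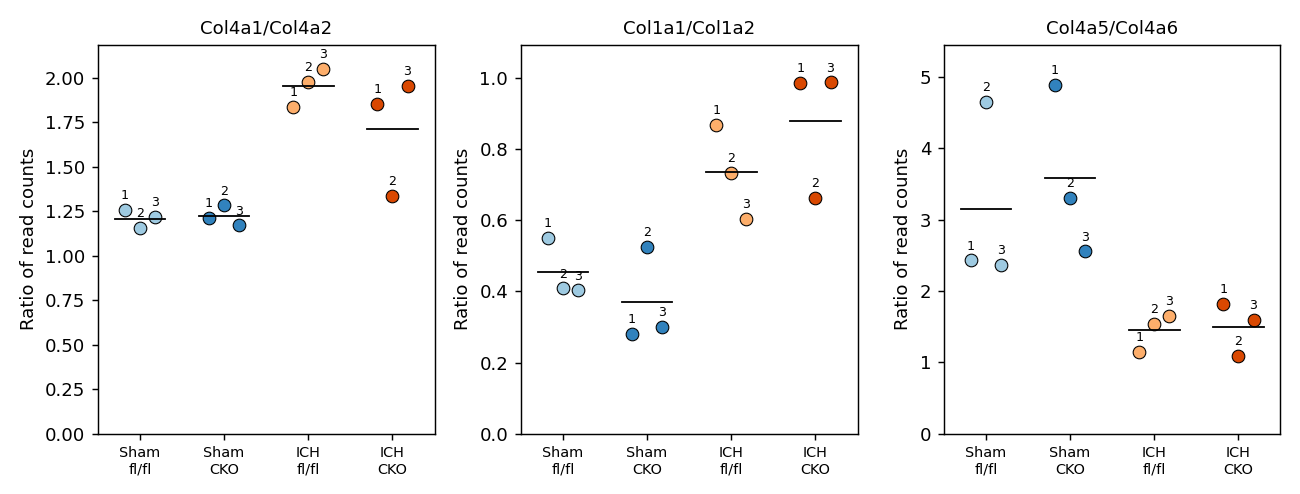
Ratio of read counts of paired chains in each library; points are libraries with their number, lines are group means. Col4a1 to Col4a2 lay between 1.15 and 1.28 in sham and between 1.34 and 2.05 after ICH, and Col4a5 to Col4a6 was lower after ICH in both genotypes.

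Genes whose products modify, fold, process or bind collagen were taken as 4 lists. Over the 4 lists 32 of 52 tested genes were higher and 3 lower in ICH-fl/fl than in Sham-fl/fl, where 26.2% of all tested genes were higher and 19.3% lower. In ICH-CKO against Sham-CKO 31 of 51 were higher and 2 lower, where the shares of all tested genes were 24.5% and 11.1%. Of 15 genes for hydroxylation and glycosylation of collagen, 11 were higher in ICH-fl/fl than in Sham-fl/fl and 11 in ICH-CKO than in Sham-CKO, with 0 lower in either by edgeR's quasi-likelihood test. The lysyl hydroxylases Plod1 (log2 fold change 1.86, SE 0.21) and Plod3 (1.65, SE 0.22) and Ppib (1.62, SE 0.23), a prolyl isomerase, had the smallest p-values in fl/fl, and P4ha3, a prolyl hydroxylase subunit, P3h2 and Plod3 in CKO (1.96, SE 0.16; 1.82, SE 0.25; 2.01, SE 0.31). Of 14 genes for folding and secretion, 7 were higher and 2 lower in fl/fl, and 7 higher and 1 lower in CKO. Among these, Serpinh1, the collagen chaperone HSP47, was at 22.2, 21.2 and 32.5 CPM in Sham-fl/fl and 156, 121 and 62.4 CPM in ICH-fl/fl, without overlap (2.11, SE 0.34), and Sec23a, a coat protein of secretory vesicles, was lower (-1.03, SE 0.19), as was Klhl12, a ubiquitin ligase adaptor of procollagen export; both were named after their values were seen.

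Of 14 genes for procollagen cleavage and crosslinking, 7 were higher and 1 lower in fl/fl, and 7 of 13 tested were higher and 1 lower in CKO. Loxl1 (2.26, SE 0.23), Loxl3 (1.77, SE 0.22), both lysyl oxidase-like crosslinking enzymes, and Bmp1 (2.48, SE 0.33), the procollagen C-proteinase, had the smallest p-values in fl/fl, while the fold changes of Lox (3.63, SE 0.67) and Loxl2 (3.36, SE 0.53) were larger. The lysyl oxidase Lox was at 0.601, 0.403 and 0.322 CPM in Sham-CKO and at 23.6, 2.98 and 70.4 CPM in ICH-CKO, with library 2 again the lowest of its group (log2 fold change 6.18, SE 1.24). Of the 10 receptors, 9 were tested, and 7 were higher in fl/fl and 6 in CKO, with 0 lower. Lair1, an inhibitory collagen receptor of leukocytes, had the smallest p in both (2.47, SE 0.23 in fl/fl and 3.63, SE 0.52 in CKO), and the integrin chain Itga1 rose by 2.42 (SE 0.29) on the log2 scale in fl/fl. Between genotypes 0 genes of these 4 lists passed the adjusted threshold in either ICH or sham libraries. Their counts at an unadjusted p under 0.05 were 2 higher and 4 lower of 52 in ICH-CKO than in ICH-fl/fl (3.85% and 7.69%, against 6.36% and 5.82% of all tested genes). In Sham-CKO against Sham-fl/fl they were 0 higher and 8 lower of 49 (0% and 16.3%, against 4.15% and 6.07% of all tested genes).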

How the data were processed

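RNA from 12 mouse brain libraries was poly(A)-selected and prepared with a kit that does not mark strand, so antisense and overlapping genes could not be told apart. The authors deposited expected counts per gene, 7.36% to 8.69% of them not whole. Per the labels, the submitters' processing notes name Bowtie2 2.2.8, HISAT2, StringTie 1.3.1 and DESeq2. The role of each, the genome build and the annotation are not given in the sources used here. Here the estimated counts were rounded. Each pair of groups was fitted alone with edgeR 4.0.16 (quasi-likelihood test, TMM scaling, filterByExpr with a minimum count of 10 and a total of 15; R 4.3.3), and the interaction over all 12 libraries. Benjamini-Hochberg adjustment covered all tested genes, with a threshold of 0.05. The SE of a log2 fold change was derived from the test, as its absolute value divided by the square root of the quasi-likelihood F statistic. DESeq2 1.42.0, other scalings and filters, a replicate block and fits without each library were alternatives. CPM used TMM factors over all 12 libraries. The fits were tested on simulated data.

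Of the 44 collagens, 35 passed the filter in all 4 pairwise comparisons and 3 (Col10a1, Col24a1 and Col28a1) in none. The plan was to name up to 8 collagens per class past the threshold, taken in order of p, and a core of 13 genes. Where none passed, up to 10 with an unadjusted p under 0.05 were added. Pathway lists could give up to 3 genes each. Not every gene of this plan is printed for every comparison. Col4a3, Col4a4, Col11a2, Col27a1, Col6a4 and Col10a1 were described beside them after their values were seen. The members and lists were chosen with earlier results of these data known. Counting intervals cover counting error only. The 83 entries without a gene symbol were left out.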

Additional observations from a re-analysis of the deposited data

How the results depend on the processing

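Scaling by RLE or by total counts left the counts of called collagens as reported in every comparison. In ICH-fl/fl against Sham-fl/fl the 3 lower genes became 1 when at least 10 counts were required in every library. In ICH-CKO against Sham-CKO, leaving out 1 library gave 4 to 26 higher and 0 to 2 lower genes. In ICH-CKO against ICH-fl/fl, DESeq2 gave 5 higher genes and 1 fit over all 12 libraries gave 1. An unadjusted p under 0.05 with a fold change of at least 1.5 gave 10 higher and 2 lower. Without 1 library 0 to 1 were higher, and the 1 was Col10a1, which entered that fit through its high libraries. In Sham-CKO against Sham-fl/fl, DESeq2 gave 5 lower genes and the unadjusted threshold 11 lower and 1 higher; without 1 library 0 to 9 were lower and 0 to 2 higher. For the interaction, DESeq2 gave 5 higher genes and the unadjusted threshold 13 higher and 1 lower; without 1 library 0 to 9 were higher. The cause of these changes was not tested.

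The log2 fold change in ICH-CKO against ICH-fl/fl turned to 0.0021 for Col4a1 and 0.11 for Col4a2 without ICH-fl/fl library 1, to 0.15 for both and to -0.27 for Col25a1 without ICH-CKO library 2, and to -0.13 for Col12a1 without ICH-CKO library 3. Over all fits without 1 library these values ran from -0.92 to 0.15 for Col4a1, -0.79 to 0.15 for Col4a2, -0.13 to 0.98 for Col12a1 and -0.27 to 1.69 for Col25a1. The interaction turned to -0.19 for Col6a1 without Sham-fl/fl library 3, to 0.08 for Col4a1 and 0.21 for Col4a2 without ICH-fl/fl library 1, and to 0.17 for Col4a1, 0.19 for Col4a2 and -0.21 for Col25a1 without ICH-CKO library 2. The ranges here were -0.89 to 0.17 for Col4a1, -0.74 to 0.21 for Col4a2, -0.19 to 0.60 for Col6a1 and -0.21 to 1.75 for Col25a1.

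Libraries with the same number did not consistently deviate together over the comparisons (correlations from -0.634 to 0.394), so the numbers were not taken as pairs. In ICH-fl/fl against Sham-fl/fl these correlations ran from 0.044 to 0.235. Their mean was 0.148, against -0.0723 for libraries with different numbers. With the replicate block, 20 collagens were higher and 3 lower in ICH-fl/fl against sham, 18 higher in ICH-CKO against sham, 0 called between genotypes and 1 higher in the interaction. With 3 libraries a group and 1 ICH-CKO library apart from the others, differences between the ICH groups of the size seen for type I and III collagen could not be separated from the spread.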
